A study of Mus musculus with 21 samples.

Results

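8 genes of the skeletal muscle contractile apparatus were followed in RNA bisulphite sequencing of mouse back skin. Acta1, Ckm, Mylpf, Tnnt3, Tnni2, Myh4, Myh1 and Atp2a1 were chosen as the set, and its members were all cytosines listed in the deposited results that lie in an annotated exon of one of them, on the sense strand. These were 8 of 8482 genes with at least 1 listed exonic cytosine, and 3728 of 764882 listed exonic cytosines. Skin is not a muscle, but mouse back skin lies on the panniculus carnosus, a thin sheet of striated muscle, and holds small smooth muscles beside its hair follicles.

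In striated muscle, myosin heavy chains of the thick filament pull on actin of the thin filament, and troponin on the thin filament lets this happen only when calcium is present. A calcium pump of the sarcoplasmic reticulum then clears the calcium, and creatine kinase restores the ATP that both steps use. Fast fibres are told apart by their myosin heavy chain, of which Myh4 and Myh1 encode the fast 2B and 2X forms.

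4 WT and 4 NSun2-/- libraries were compared, all from back skin of C57Bl6/J CBA F1 males at postnatal day 25, when hair follicles are growing. NSun2 methylates cytosine to 5-methylcytosine in tRNA and some other RNAs, and the NSun2-/- mice carried a gene trap insertion from 1 embryonic stem cell clone, in all cells of the animal. In bisulphite-treated RNA an unmethylated cytosine is read as T, whereas a methylated or otherwise unconverted one is still read as C, and the percent unconverted at a position is the share of reads with C. Whole skin mixes many cell types, so fewer muscle cells in a piece of skin and less RNA per muscle cell cannot be told apart.

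The deposited results list a cytosine only where at least 10 reads cover it. Coverage of a gene was therefore the number of converted and unconverted reads summed over its listed cytosines, in which 1 read counts once at each cytosine it covers, and a gene with no listed cytosine may still have been read. Total exonic coverage was 11822023 to 13350056 in the WT libraries and 6402935 to 40009465 in the NSun2-/- libraries. Nsun2 itself had 23 to 48 listed cytosines in the WT libraries and was listed at 0 in all 4 NSun2-/- libraries. NSun2-/- 2 stood apart, with the lowest exonic coverage and 12.5% unconverted over all exonic cytosines, against 2.09% to 4.12% in the other 7 libraries, and values without it are given where it changes them. In NSun2-/- 4 a single 5S rRNA gene took 35.2% of exonic coverage, against 0.735% to 16.8% elsewhere. The percent unconverted over all exonic cytosines was 2.90 ± 0.886 in WT and 5.58 ± 4.70 in NSun2-/- (SD, n = 4), a difference within the spread of the libraries (exact permutation test, two-sided, p = 0.343, smallest possible p 0.0286).

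Other muscle genes were looked at beside the set. Of 10 further genes of the fast thin and thick filament all had coverage, among them Ttn, the giant elastic protein of the sarcomere. Of 11 genes of slow and developmental sarcomeres 3 had coverage, and their summed level did not pass 49.1 counts per 1000000 of exonic coverage (CPM) in any library. 6 cardiac muscle genes were listed at 0 in all libraries, and 1 of 7 myogenic regulators had coverage. Smooth muscle genes were present, with coverage for 7 of 9, of which 3 had it in all 8 libraries. Their summed level was 309 to 437 CPM in WT and 472 to 1043 CPM in NSun2-/- libraries, without overlap. Des, which encodes desmin and belongs to the Z-disc list of skeletal muscle as well, was part of this sum.

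The sequences below are the stretches on which the results turn, read 5′ to 3′ along the mRNA from the mouse genome build mm9. Capital C marks a cytosine that was listed in all 8 libraries, and a lower case c one that fell under the read minimum in at least 1. The Myh1 and Myh4 stretches are the same part of the same coding exon, chr11:67034020-67034169 and chr11:67069805-67069954, both on the plus strand. They are shown because they hold 16 of the 26 Myh1 cytosines that every library lists, and the same window of Myh4 holds 36. They differ at 21 of 150 bases, and at 11 once C is read as T. The Acta1 exon lies at chr8:126416444-126416635 on the minus strand and is deeply covered, with all 57 of its cytosines listed in every library. The Ckm exon lies at chr7:20000750-20000882 on the plus strand, with 40 of 41.
Myh1: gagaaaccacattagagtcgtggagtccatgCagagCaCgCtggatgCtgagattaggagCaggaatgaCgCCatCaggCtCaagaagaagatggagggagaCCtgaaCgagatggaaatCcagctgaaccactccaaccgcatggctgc
Myh4: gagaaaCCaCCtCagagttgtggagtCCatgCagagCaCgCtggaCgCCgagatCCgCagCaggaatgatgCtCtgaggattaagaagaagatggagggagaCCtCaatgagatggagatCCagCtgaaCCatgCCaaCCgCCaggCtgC
Acta1: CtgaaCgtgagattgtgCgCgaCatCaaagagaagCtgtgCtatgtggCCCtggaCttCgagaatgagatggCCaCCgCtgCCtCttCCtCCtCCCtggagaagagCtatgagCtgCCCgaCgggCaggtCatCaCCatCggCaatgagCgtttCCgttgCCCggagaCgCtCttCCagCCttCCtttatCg
Ckm: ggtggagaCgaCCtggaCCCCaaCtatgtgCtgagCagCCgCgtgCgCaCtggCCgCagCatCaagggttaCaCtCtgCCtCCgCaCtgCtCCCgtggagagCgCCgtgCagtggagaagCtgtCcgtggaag
Over the capitals of the Acta1 exon 1.60% to 3.90% of reads were unconverted in WT and 2.52% to 6.74% in NSun2-/- libraries. The Ckm exon gave 1.10% to 2.18% in WT and 1.00% to 2.47% in NSun2-/-, the Myh4 stretch 1.96% to 2.38% and 1.65% to 5.44%, and the Myh1 stretch 0.784% to 4.51% and 2.22% to 17.5%. The genotypes overlapped in all 4, and NSun2-/- 2 was the highest library in each, with the 17.5% of Myh1 resting on a coverage of 942.

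How much of a gene was seen differed between the genes. Among the exons of the 8 genes, none of the 38 that were shorter than 90 bases had a listed cytosine, so that all 541 cytosines in them were missing. Of 30 exons of 90 bases to under 120 16 had one, with 48.0% of cytosines listed, and of 84 longer exons 75 had one, with 75.7% listed. Over the other 3860 genes tested, 3.81% of exons under 90 bases, 10.2% of the middle class and 40.9% of the longest held a listed cytosine. Tnnt3, with 13 of its 19 exons under 90 bases, was seen through 3 exons, Mylpf through 2 of 8 and Tnni2 through 3 of 7, whereas Acta1 was seen through 6 of 7 and Ckm through 7 of 8. Listed cytosines made up 92.7% of the exonic cytosines of Acta1, 92.9% of Ckm, 76.7% of Myh4, 64.0% of Myh1, 61.1% of Atp2a1, 30.6% of Tnni2, 25.6% of Mylpf and 24.6% of Tnnt3. Longer exons were missing too, among them those of 169 and 305 bases in Tnni2, of 127 and 156 bases in Mylpf and of 237 bases in Tnnt3. The others were of 157 bases in Myh4, of 177 and 305 bases in Myh1 and of 269 bases in Atp2a1. Unlisted exons add nothing to a gene's coverage but count in its exon length, and the parts of exon length and of a low level in this were not tested.

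**Figure D1:**
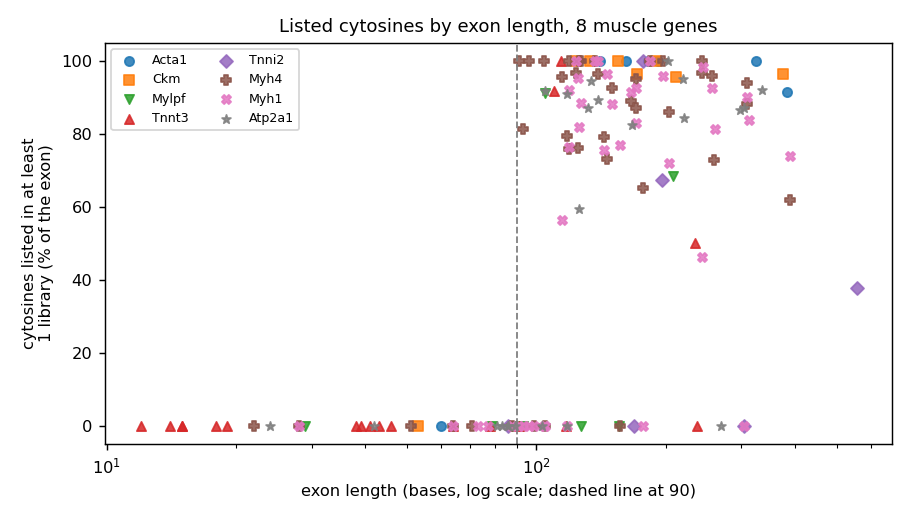
Each point is 1 exon of the 8 genes, placed by its length (x axis, bases, log scale) and by the share of its cytosines listed in at least 1 library (y axis, percent). Left of the dashed line at 90 bases every exon sits at 0, and the shortest exon with a listed cytosine had 91 bases.

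On the scale of CPM per kilobase of exon, Acta1 had the highest WT mean of the set with 995 ± 169 (SD, n = 4). Ckm followed with 821 ± 519, though in WT 2 it was above Acta1, at 1506 against 1205. Myh4 with 333 ± 196, Tnni2 with 257 ± 171 and Atp2a1 with 184 ± 64.4 came next. Read within each library, Myh4 was the highest of these 3 in WT 1 to 3 and the lowest in WT 4, where it had 64.3. Myh1, Tnnt3 and Mylpf were the lowest, with 30.0 ± 20.2, 17.6 ± 4.88 and 9.96 ± 14.1. In NSun2-/- skin Acta1 again led, at 2725 ± 1820, and Myh1 stood at 196 ± 126.

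The main comparison asked whether coverage of a gene differed between genotypes, with edgeR's quasi-likelihood test over 3868 genes. No gene was called at an adjusted p under 0.05 in either direction, so that 0% of genes were called higher and 0% lower, and 0 of the 8 muscle genes. At an unadjusted p under 0.05, 118 genes were higher and 120 lower, and Acta1 and Myh1 were among the higher. The median log2 fold change of the 8 genes, 0.31, was the same as that of all genes tested, 0.31. The 2 medians stayed close without TMM factors (0.66 and 0.64) and with DESeq2 (0.38 and 0.39), but not under every setting. With a minimum scaled to each library's depth they were 0.94 for 7 of the genes and -0.10 for all. On cytosines listed in all 8 libraries they were 0.45 for 6 of the genes and 0.01. Without NSun2-/- 2 they were 0.12 and 1.00. DESeq2 called 1.58% of genes higher, among them 1 of the 8, Myh1, and limma none of them. All 4 NSun2-/- libraries lay above all 4 WT libraries in CPM for 3 of the 8, Acta1, Mylpf and Myh1, and for 5.09% of all genes tested. None of the 8 lay wholly lower, against 1.47% of all genes. With the coverage of protein-coding exons as the total, Atp2a1 too was without overlap, and Mylpf was not. The share of all genes without overlap on that total was not counted, so this is a description only.

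**Figure D2:**
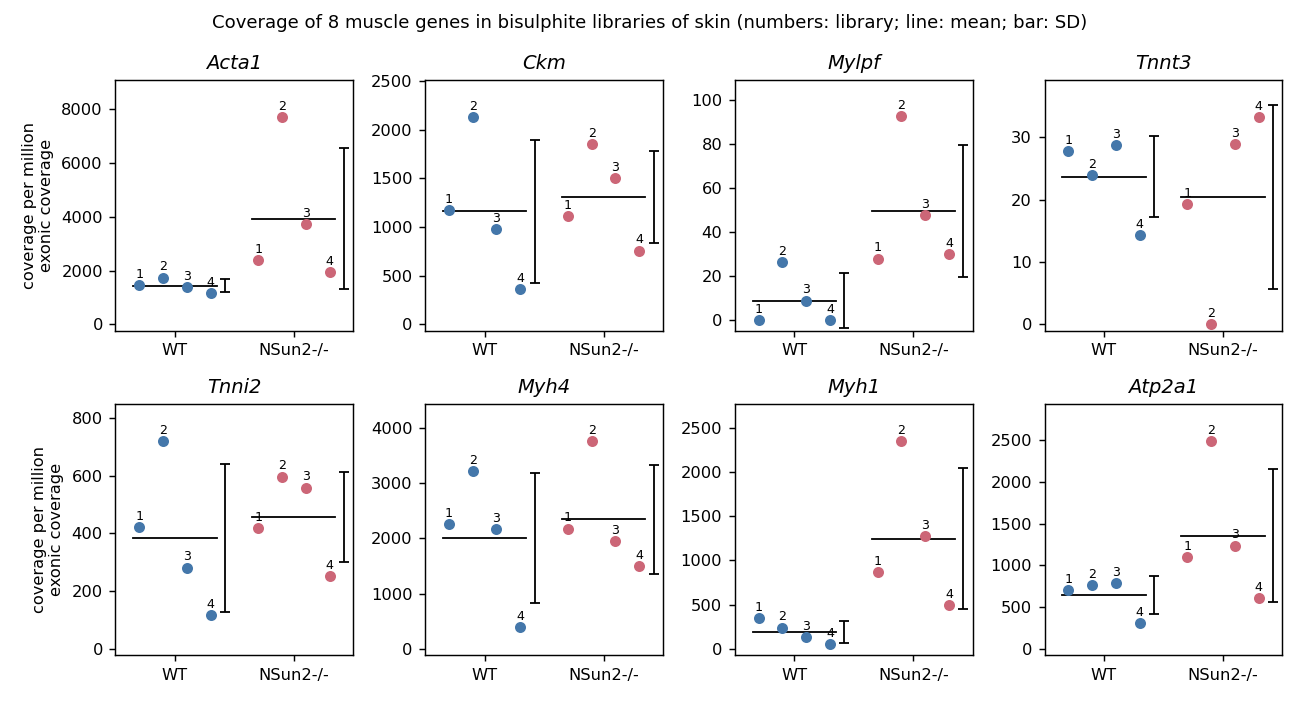
Coverage of each gene in CPM, per 1000000 of exonic coverage (y axis, linear) in the 4 WT and 4 NSun2-/- libraries. Points are libraries with their number, lines are means and bars are SD. Acta1, Mylpf and Myh1 are the 3 genes whose genotypes do not overlap, and NSun2-/- 2 is the highest library for Acta1, Myh1, Myh4, Atp2a1 and Mylpf.

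Acta1 encodes skeletal alpha-actin, the thin filament itself (ENSMUSG00000031972.3, chr8:126415669-126418651, minus strand). Its CPM was 1474, 1742, 1389 and 1151 in WT 1 to 4, and 2377, 7718, 3732 and 1935 in NSun2-/- 1 to 4. Every NSun2-/- library was above every WT library, and NSun2-/- 2 was far above the rest. The fitted log2 fold change was 1.12 ± 0.42 (SE), or 2.18-fold, with an edgeR adjusted p of 0.542. Without NSun2-/- 2 it was 0.55, below the median of 1.00 over all genes tested in that fit. The genotypes overlapped after TMM scaling, where WT 2 stood at 2229 and NSun2-/- 1 at 1848. On cytosines listed in all 8 libraries they did not, at 1389 to 1862 CPM in WT and 2013 to 7536 in NSun2-/-. There 0.749% of 1202 genes had every NSun2-/- library higher, and Acta1 was not called (edgeR adjusted p = 0.0625). Of its sequence, 8.73% of the 50-base stretches, with C read as T, occur in transcripts of other actins.

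Tnnt3 and Tnni2 encode fast skeletal troponin T and troponin I, which hold the troponin complex to the thin filament and block myosin binding at rest. The CPM of Tnni2 (ENSMUSG00000031097.8, chr7:149627713-149630315, plus strand) was 421, 719, 282 and 116 in WT 1 to 4 and 419, 597, 559 and 252 in NSun2-/- 1 to 4. The genotypes overlapped throughout, and the log2 fold change was -0.15 ± 0.51 (SE, edgeR adjusted p = 0.999). Tnnt3 (ENSMUSG00000061723.10, chr7:149684741-149701914, plus strand) had 27.7, 23.9, 28.8 and 14.4 CPM in WT, and 19.3, 28.9 and 33.2 in NSun2-/- 1, 3 and 4, while NSun2-/- 2 listed it at 0. Its log2 fold change was -0.43 ± 1.54 (SE, edgeR adjusted p = 0.999). Neither direction held: leaving out WT 2 gave 0.49 for Tnni2, and a minimum of 20 reads gave 0.75 for Tnnt3.

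Myh4 encodes the myosin heavy chain of 2B fibres, the fastest type (ENSMUSG00000057003.5, chr11:67051314-67073948, plus strand). Its CPM was 2255, 3224, 2166 and 389 in WT 1 to 4 and 2178, 3758, 1948 and 1495 in NSun2-/- 1 to 4. The groups overlapped, with WT 4 well below all others, and the log2 fold change was -0.12 ± 0.56 (SE, edgeR adjusted p = 0.999). Without TMM factors it was 0.22, so no direction held.

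Myh1, its neighbour on chromosome 11, encodes the heavy chain of 2X fibres (ENSMUSG00000056328.7, chr11:67013554-67038078, plus strand). Its CPM was 344, 239, 131 and 48.7 in WT 1 to 4, and 868, 2348, 1275 and 497 in NSun2-/- 1 to 4. The lowest NSun2-/- library lay above the highest WT library, also after TMM scaling, where these were 616 and 357. The log2 fold change was the largest of the set, 2.36 ± 0.62 (SE), or 5.14-fold, with an unadjusted p of 0.00362 and an edgeR adjusted p of 0.274. Without NSun2-/- 2 it was 1.82, with an edgeR adjusted p of 0.0926, so Myh1 was not called. In that fit 1082 of 5188 genes were called higher, and the median log2 fold change of all genes was 1.00. Counting only the cytosines that all 8 libraries list, 26 for Myh1, the log2 fold change of Myh1 was 1.64. It passed the test there (edgeR adjusted p = 0.0379), in a comparison of 1202 genes in which 0.499% were called higher. On those cytosines the libraries overlapped, however, since WT 1 had 64.9 and NSun2-/- 4 had 61.9 CPM. The share of its exonic cytosines that were listed was 3.14% to 16.4% in WT and 36.8% to 62.3% in NSun2-/- libraries, and the shallowest library, NSun2-/- 2, listed 36.8%. Cytosines were listed in 4 to 11 of its 40 exons in WT and in 18 to 25 in NSun2-/-.

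**Figure D3:**
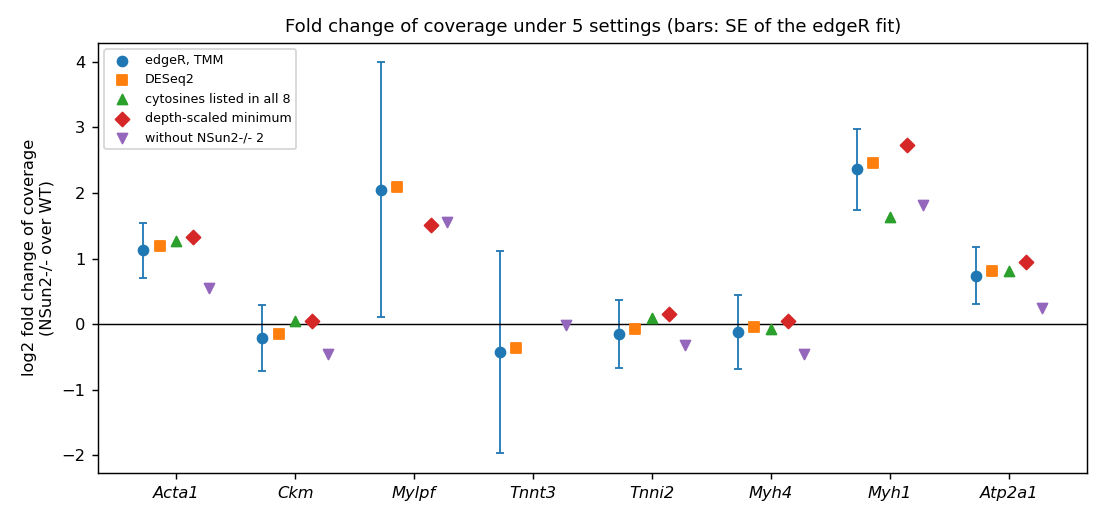
Log2 fold change of coverage, NSun2-/- over WT (y axis), for each gene under 5 settings, with the SE of the edgeR fit as bars. Myh1 lies between 1.64 and 2.73 under all 5, Acta1 between 0.55 and 1.33, and Ckm, Tnni2 and Myh4 lie on both sides of 0.

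Because Myh1 and Myh4 are read in the same library, their ratio needs no library total. Over all listed cytosines the coverage of Myh1 per coverage of Myh4 was 0.153, 0.0741, 0.0607 and 0.125 in WT 1 to 4, and 0.399, 0.625, 0.654 and 0.332 in NSun2-/- 1 to 4. The genotypes did not overlap, nor did they with a minimum scaled to each library's depth. An unlisted cytosine adds nothing to either gene, and far fewer Myh1 cytosines were listed in WT, so the read minimum can itself lower this ratio in WT. With a minimum of 20 reads no Myh1 cytosine was left in WT 4, where the ratio was 0. On the cytosines listed in all 8 libraries the ratio was lower, 0.0160 to 0.0780 in WT and 0.0639 to 0.127 in NSun2-/-, and WT 4 overlapped. At 19 aligned cytosines in 2 coding exons, which hold a listed cytosine in both genes and in every library, it was 0.345, 0.180, 0.205 and 0.650 in WT 1 to 4 and 0.601, 0.944, 0.900 and 0.516 in NSun2-/- 1 to 4. There the other 3 WT libraries lay below every NSun2-/- library, and WT 4 did not. Its coverage summed over these 19 positions was 412 for Myh4 and 268 for Myh1. Myosin genes are alike, and 38.2% of the converted 50-base stretches of Myh1 and 31.7% of those of Myh4 also occur in another gene's transcript, mostly Myh2, Myh8 and each other. How far reads moved between them was not tested.

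**Figure D4:**
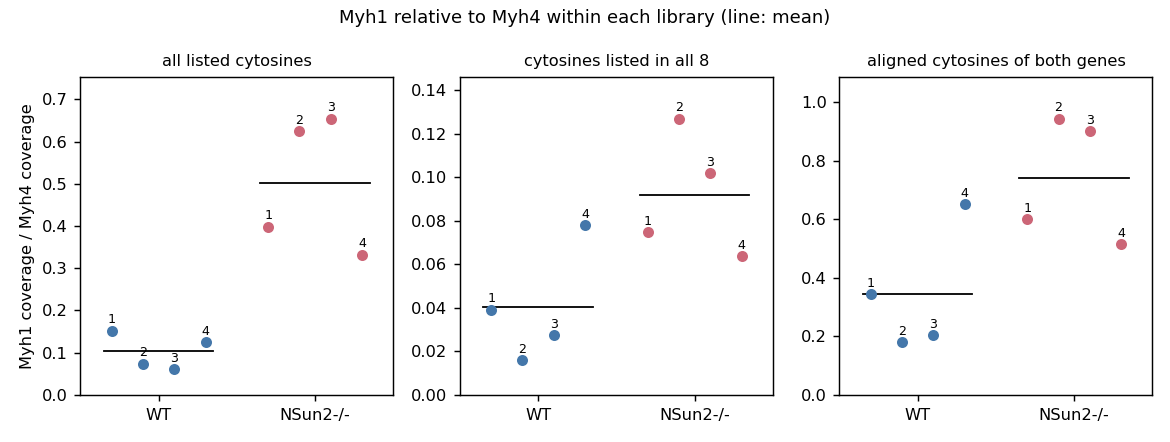
Coverage of Myh1 divided by coverage of Myh4 in each library (y axis), over all listed cytosines, over those listed in all 8 libraries, and over aligned cytosines of both genes. Points are libraries with their number and lines are means. Over all listed cytosines every NSun2-/- library lies above every WT library, whereas in the panel of cytosines listed in all 8 libraries and in that of aligned cytosines WT 4 lies above NSun2-/- 1 and NSun2-/- 4.

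Mylpf, the fast regulatory light chain on the neck of the myosin head (ENSMUSG00000030672.6, chr7:134355122-134357812, plus strand), was seen thinly. WT 1 and WT 4 listed it at 0, WT 2 and WT 3 had 26.4 and 8.84 CPM, and NSun2-/- 1 to 4 had 27.9, 92.5, 47.6 and 30.0. All NSun2-/- libraries were above WT, though WT 2 and NSun2-/- 1 lay close together and changed order after TMM scaling. The fitted log2 fold change, 2.05 ± 1.94 (SE, edgeR adjusted p = 0.999), rests on WT libraries that list it at 0 and depends on the prior count.

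Ckm encodes the muscle creatine kinase (ENSMUSG00000030399.1, chr7:19996443-20006932, plus strand). Its CPM was 1178, 2132, 979 and 360 in WT 1 to 4 and 1115, 1853, 1502 and 758 in NSun2-/- 1 to 4. The genotypes overlapped, and the log2 fold change was -0.21 ± 0.50 (SE, edgeR adjusted p = 0.999) and turned to 0.17 without TMM factors. Ckm and Tnni2 kept a near constant ratio across libraries, in that Tnni2 coverage per Ckm coverage stayed between 0.288 and 0.376 in all 8.

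Atp2a1 encodes SERCA1, the fast-fibre calcium pump (ENSMUSG00000030730.6, chr7:133589372-133606622, minus strand). It had 702, 764, 789 and 310 CPM in WT 1 to 4 and 1094, 2485, 1236 and 604 in NSun2-/- 1 to 4. 3 NSun2-/- libraries were above all WT libraries and NSun2-/- 4 was not. The log2 fold change was 0.74 ± 0.43 (SE, edgeR adjusted p = 0.999). Without NSun2-/- 2 it was 0.24, below the median of 1.00 over all genes tested in that fit.

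Summed over the 8 genes, coverage was 6401, 8870, 5773 and 2388 CPM in WT 1 to 4 and 8099, 18851, 10328 and 5603 in NSun2-/- 1 to 4, so the genotypes overlapped. Within this sum Myh1 took 2.04% to 5.37% in WT and 8.86% to 12.5% in NSun2-/-, without overlap. Ckm took 15.1% to 24.0% and 9.83% to 14.5%, and Mylpf 0% to 0.298% and 0.344% to 0.535%, also without overlap. These are shares of the same sum, so a higher share of one gene lowers those of others, and Ckm itself overlapped in CPM. The read minimum can lower the share of Myh1 in WT here too. Acta1 took 19.6% to 24.1% in WT 1 to 3 but 48.2% in WT 4, against 29.4% to 40.9% in NSun2-/-. Hair follicle genes stood the other way round. Their summed coverage was 16707, 12564, 45238 and 97508 CPM in WT 1 to 4 and 5472, 2191, 444 and 2269 in NSun2-/- 1 to 4, so that WT 4 had the most hair follicle and the least muscle coverage. Of 11 hair follicle genes tested all had a negative log2 fold change (median -5.38), and 10 had an unadjusted p under 0.05 but none an adjusted one. Among them Tchh, which encodes trichohyalin of the inner root sheath, was lowest in NSun2-/- 3 at 80.7 and highest in WT 4 at 45576 CPM. The part of the hair follicle in the muscle values was not tested.

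Other muscle lists were described in the same way. Of the further fast filament genes 8 were tested, none was called, 6 were above 0, and their median log2 fold change was 0.29, against 0.31 over all genes. Ttn, the one with the highest coverage, had 4559, 5218, 2241 and 445 CPM in WT 1 to 4 and 7040, 10515, 10084 and 5500 in NSun2-/- 1 to 4, without overlap, and a log2 fold change of 1.05 ± 0.62 (SE, edgeR adjusted p = 0.999). Of the slow and developmental sarcomere genes 1 was tested, Tpm3, a tropomyosin, with a log2 fold change of 0.17. Of the Z-disc genes 3 were tested, none was called, and all were above 0 with a median of 1.44, though 2 of them were listed at 0 in some WT libraries. Their most covered member was Des, the intermediate filament desmin, at 194, 227, 186 and 95.2 CPM in WT and 421, 563, 618 and 282 in NSun2-/-, with a log2 fold change of 1.07 ± 0.34 (SE, edgeR adjusted p = 0.325). Desmin is also made by smooth muscle. Of 5 calcium handling genes tested none was called, 4 were above 0, and the median log2 fold change was 1.71. The most covered, the slow pump Atp2a2, was the one below 0, at -0.42. Of 5 energy metabolism genes none was called, 4 were above 0, and the median was 0.94, while the most covered, Aldoa, the glycolytic aldolase, had -0.18. In both lists 3 of the 5 genes were listed at 0 in at least 1 WT library, so their fitted values depend on the prior count.

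Lists of other cells held no called gene either. The 7 smooth muscle genes tested were all above 0, with a median of 0.46, and after Des the most covered was Acta2, smooth muscle actin, at 0.30. Their summed coverage did not overlap between genotypes, as given above, whereas that of the 8 skeletal muscle genes did. Des was a large part of the smooth muscle sum, at 95.2 to 227 CPM in WT and 282 to 618 CPM in NSun2-/-, without overlap. Each of the other smooth muscle genes tested overlapped, Acta2 at 31.2 to 141 and 102 to 163 CPM. With Des left out, the smooth muscle sum overlapped too. The sum of the Z-disc list, which shares Des, did not overlap, at 95.2 to 240 CPM in WT and 316 to 842 CPM in NSun2-/-. The part of smooth muscle in the values of the 8 genes was not tested. The median was 0.13 for 12 fibroblast genes, led by Col1a1 at -0.45, and -0.32 for 10 epidermal keratinocyte genes, led by Dsp, the desmosomal desmoplakin, at -1.10. It was 0.83 for 10 adipocyte genes, led by the desaturase Scd1 at 0.32, 0.46 for 3 sebocyte genes, led by Scd3 at 0.49, and 0.39 for 4 immune genes, led by the lysozyme Lyz2 at -0.22. 1 blood gene, Hbb-b1, and 1 Schwann cell gene, Pmp22, were tested, at -0.35 and 1.14, and no endothelial gene was.

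Among 1326 genes with coverage in every library, those whose log2 CPM was most like the mean of the 8 muscle genes over the 8 libraries were Actn3 (Pearson's r 0.970), Ttn (0.963), Pcolce2 (0.945), Pgam2 (0.942), Des (0.932), Fhl1 (0.931), Cd248 (0.915), Cilp (0.909), Dse (0.908) and Gas6 (0.904). The libraries share depth and the total they are scaled to, so these values describe the pattern and no more. Actn3, alpha-actinin of fast fibres, had 81.4, 209, 116 and 20.4 CPM in WT 1 to 4 and 178, 243, 181 and 104 in NSun2-/- 1 to 4.

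The second comparison asked whether cytosines of these mRNAs were left unconverted in a way that depended on NSun2. Percent unconverted per gene was tested by edgeR over 2368 genes, and 0% were called higher and 0% lower. 7 of the 8 genes entered the test, all but Mylpf, and 0 were called, with 0 at an unadjusted p under 0.05 and 0 by limma. All 7 had a higher mean in NSun2-/-, by 1.27 to 3.60 percentage points with a median of 1.88, against a median of 1.11 over all genes tested. Without NSun2-/- 2 the medians were 0.46 and 0.40. After the percent of all exonic cytosines of each library was subtracted, they were -0.23 and -0.55, and 2 of the 7 were above 0. That total includes exons outside protein-coding genes. The percent over protein-coding exons alone was not subtracted, so these signs hold for this total only.

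Acta1 was unconverted at 2.23%, 2.56%, 1.38% and 3.42% in WT 1 to 4 and 3.41%, 10.8%, 2.06% and 3.04% in NSun2-/- 1 to 4. Myh1 had 1.55%, 2.92%, 1.71% and 0.801% in WT and 3.51%, 12.5%, 1.96% and 3.44% in NSun2-/-, and Myh4 had 2.30%, 2.64%, 1.75% and 3.36% against 3.24%, 9.89%, 2.05% and 2.39%. In all 3 the genotypes overlapped, and NSun2-/- 2 was by far the highest. Atp2a1 ranged from 1.20% to 2.22% in WT and from 1.81% to 9.99% in NSun2-/-, Ckm from 1.42% to 3.06% and from 1.39% to 8.26%, and Tnni2 from 1.48% to 3.01% and from 2.11% to 7.14%. Acta1, Ckm, Myh4, Myh1 and Atp2a1 lay below the percent of all exonic cytosines of their own library in 8 of 8 libraries. Tnni2 did so in 6 of 8. That percent also counts exons outside protein-coding genes. Against the percent over protein-coding exons alone, Ckm still lay below in every library, and Atp2a1 in all but NSun2-/- 2. Acta1, Myh4, Myh1 and Tnni2 lay above it in some libraries and below it in others, so their place depends on the total used. How many other genes lay below either percent was not counted. Tnnt3 had 0.610% to 3.80% in WT and 2.35% to 4.49% in the 3 NSun2-/- libraries that list it.

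**Figure D5:**
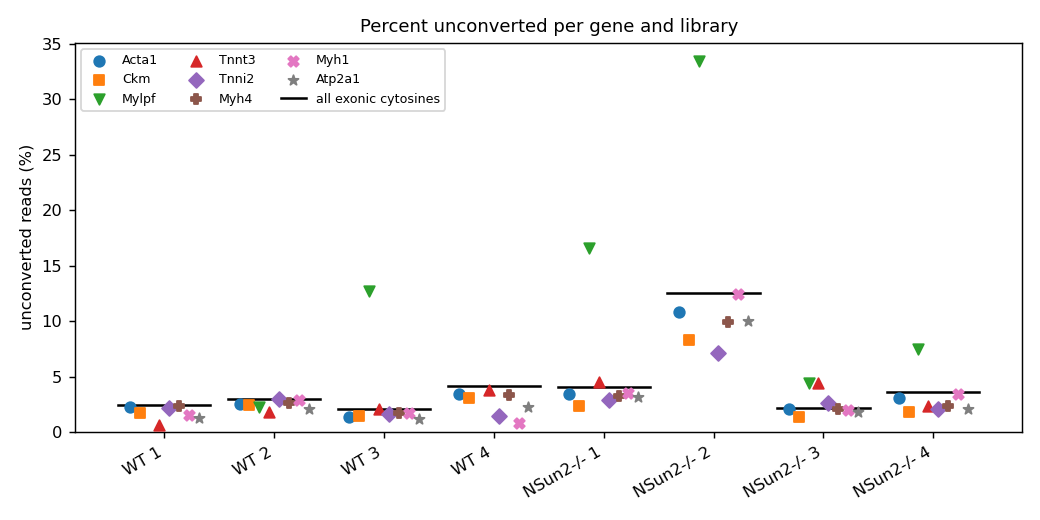
Percent of reads unconverted (y axis) for each gene in each library (x axis), with a black line at the percent over all exonic cytosines of that library. The genes follow the line, which is highest in NSun2-/- 2 at 12.5%, and Mylpf lies above it in 5 of the 6 libraries that list it.

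Mylpf was the exception, with 2.23% and 12.7% in WT 2 and WT 3 and 16.6%, 33.4%, 4.41% and 7.47% in NSun2-/- 1 to 4. Its listed cytosines had a median of 19 reads, against 60 for Acta1, and as only WT 2 and WT 3 listed any, none reached the 3 WT libraries that the test of single cytosines needed.

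At single cytosines 122736 positions were tested, of which 0.114% were called higher and 0.147% lower in NSun2-/- by edgeR, on 2 conditions, an adjusted p under 0.05 and means at least 10 points apart. Of these, 1652 lay in the muscle genes and 0 were called in either direction. At an unadjusted p under 0.05 there were 84 of them, or 5.08%, against 2.17% of all 109414 exonic cytosines tested. This number moved with the libraries used, and so did that over all positions. Without NSun2-/- 2 it was 43 of 1652 muscle cytosines, beside 1721 higher and 1335 lower among all 122259 positions, a similar share. Without NSun2-/- 3 it was 157 of 1591, beside 6984 higher and 410 lower among 82884. Limma on the logit also called 0, with 48 of 1652 at that level, beside 1964 higher and 3398 lower among all 122736. By limma the share was lower in the muscle genes than over all positions, so the higher share did not hold throughout. The median difference was 2.08 points over the muscle cytosines and 1.13 over all positions, and 0.37 and 0.19 without NSun2-/- 2. A mean of at least 20% in WT was found at 1 of the 1652 muscle cytosines, or 0.0605%, and at 1.16% of all exonic cytosines tested. That one, named after its values were seen, lies in a coding exon of Myh4 at chr11:67069981-67069981, with 25.0%, 26.3% and 15.4% in WT 1 to 3 and 18.0%, 16.7%, 11.4% and 8.82% in NSun2-/- 1 to 4.

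The cytosine with the highest WT mean among those listed in all 8 libraries was taken for each gene. In Tnni2 it lay at chr7:149629954-149629954 in a coding exon, with 23.5%, 24.4%, 12.5% and 16.7% in WT 1 to 4 and 30.5%, 15.8%, 25.9% and 9.09% in NSun2-/- 1 to 4. In Acta1 it lay at chr8:126416493-126416493, inside the exon printed above, with 15.8%, 11.5%, 13.6% and 21.0% in WT and 15.0%, 19.2%, 13.8% and 12.0% in NSun2-/-. At both the genotypes overlapped and differed by 1.04 and -0.45 points. In Myh4, at chr11:67066888-67066888, WT libraries had 17.4%, 12.5%, 10.7% and 9.09% and NSun2-/- libraries 2.82%, 0%, 1.67% and 5.56%. The groups did not overlap there, but the unadjusted p was 0.0355 and the edgeR adjusted p was 1. The position was picked for its high WT mean, which by itself favours a lower value in NSun2-/-, so neither is support for a difference. The share of all cytosines without overlap was not counted. The corresponding position of Ckm, outside the coding part of its exon, had means of 11.8% and 11.5%, that of Atp2a1 5.76% and 5.81%, and that of Myh1 4.92% and 6.93%. For Mylpf and Tnnt3 no cytosine was listed in all 8 libraries.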

How the data were processed

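8 bisulphite libraries of skin RNA, 4 per genotype, were used, and the tRNA and Pol III files were not used here. Per the study's methods, rRNA-depleted RNA was bisulphite-converted and sequenced, and reads were mapped with Bismark 0.7.6 (submitters' processing notes). The authors deposited, for each cytosine, read counts converted and unconverted, and the percent unconverted, which equals the share computed from these counts. The study's methods name transcripts of assembly GRCm38, but the listed positions, counted from 0, all fall on C or G of mm9 and were raised by 1. Whether spliced reads could be placed is not given in the sources used here.

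Cytosines were assigned to sense-strand exons of GENCODE vM1, and counts were summed per gene. Coverage was tested with edgeR 4.0.16 (quasi-likelihood, TMM, filterByExpr, Benjamini-Hochberg adjustment, total exonic coverage as library size), with limma 3.58.1 (pseudocount of 1 CPM) and DESeq2 1.42.0 as alternatives. Percent was tested on converted and unconverted counts with a library term, per gene (at least 10 reads in 3 libraries of each genotype) and per cytosine (listed in 3 libraries of each genotype). Each step was tested on simulated data. The coverage steps recovered most of the changes put in. Those changes were large, the spread was set to the same value for all genes, and neither an outlying library nor the read minimum was simulated. That spread was not taken from the data, so how small a change in coverage could have been called is not known either. The percent steps recovered almost none when a large spread between libraries was simulated; that spread was then set lower, after which the step per gene recovered most and the step per cytosine fewer. The real spread was not estimated, so how small a change in percent could have been called is not known. Reads carry no molecular identifiers and 1 read counts at several cytosines, so counts are not independent molecules.

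The genes and lists were chosen with earlier results of these data known. Named were the 8 genes, per list the most covered gene where none passed the test, the 10 genes most alike in pattern, and per muscle gene the cytosine with the highest WT mean among those listed in all 8 libraries. The study's methods call the replicates independent biological ones. Replicate numbers did not pair the libraries. Alternatives were other normalizations, filters and minima, a replicate block and leaving out each library. 2 of them, protein-coding exons as the denominator and cytosines listed in all 8 libraries without TMM factors, were chosen after seeing the data.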

Additional observations from a re-analysis of the deposited data

Results flagged for a closer look

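In NSun2-/- 2 the percent unconverted lay far from the other 3 NSun2-/- libraries for 6 of the muscle genes and for the genes pooled, by Dixon's criterion for 4 values. It was 10.8% for Acta1 (others 2.06% to 3.41%), 8.26% for Ckm (1.39% to 2.33%), 7.14% for Tnni2 (2.11% to 2.89%), 9.89% for Myh4 (2.05% to 3.24%), 12.5% for Myh1 (1.96% to 3.51%), 9.99% for Atp2a1 (1.81% to 3.12%) and 10.5% pooled over the 8 genes (1.96% to 3.21%). Of 36 groups of 4 values tested these 7 passed, all of them in this library, and chance alone passes about 1 group in 20. That rate is for single groups. The 7 are not independent, since they share 1 library and the pooled value is made from the genes, so they are to be read as 1 deviation. The same library had 12.5% over all exonic cytosines and the lowest exonic coverage, and the part of either in these values was not tested. No value in CPM passed.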

How the results depend on the processing

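Of the 8 genes 0 were called for coverage, and this count changed to 1 with DESeq2 (Myh1) and with cytosines listed in all 8 libraries (Myh1), and to 2 without a filter on low counts and with cytosines listed in all 8 libraries and no TMM factors (Acta1 and Myh1). It was 0 to 0 on leaving out each library, and the counts for percent per gene and per cytosine stayed 0 under every alternative run. Over all genes, coverage calls were 0 higher and 0 lower, but 61 and 33 with DESeq2, 1 and 20 with limma, 45 and 127 without the filter, 6 and 6 on cytosines listed in all 8 libraries, 9 and 12 there without TMM factors, 1 and 21 with a depth-scaled minimum, 1082 and 49 without NSun2-/- 2, 2 and 17 without WT 2, 0 and 3 without WT 1, and 1 and 1 without WT 3. Over all single cytosines, calls were 140 higher and 181 lower, but 11 and 125 with limma, 88 and 156 with a minimum of 20 reads, and 11 to 531 higher and 132 to 206 lower on leaving out each library, the 531 without NSun2-/- 3. The median log2 fold change of all genes was 0.31, and 0.64 without TMM factors, 3.32 without the filter, 0.01 on cytosines listed in all 8 libraries, -0.10 with the depth-scaled minimum 1.00 without NSun2-/- 2, 0.73 to 0.77 without each WT library in turn and 0.61 with a replicate block, so fold changes are to be read against it. Signs turned for Ckm, Tnni2 and Myh4 without TMM factors (0.17, 0.25, 0.22), with limma (0.059, 0.16, 0.20) and with the depth-scaled minimum (0.048, 0.16, 0.053), for Ckm and Tnni2 on cytosines listed in all 8 libraries (0.049, 0.091) and for these and Myh4 there without TMM factors (0.22, 0.28, 0.092), and for Tnnt3 with a minimum of 20 reads (0.75). Leaving out each library gave -0.52 to 0.39 for Ckm, -0.46 to 0.49 for Tnni2 and -0.47 to 0.32 for Myh4. In the percent, 5 differences turned once the percent of all exonic cytosines was subtracted: Acta1 -0.23, Ckm -1.41, Tnni2 -1.06, Myh4 -0.80 and Atp2a1 -0.11 points. That total includes exons outside protein-coding genes, and subtracting the percent over protein-coding exons alone was not tried. For Ckm the difference ran from -0.34 to 1.95 on leaving out each library, negative without NSun2-/- 2. The cause of these changes was not tested. The replicate block, for numbers that do not pair the libraries (correlations of same-numbered deviations -0.12 to 0.01 over 1332 genes), gave 0 called genes and turned Ckm (0.047), Tnni2 (0.16) and Myh4 (0.13); no other sign or call of the 8 genes changed.

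Depth limits what can be said. A cytosine under 10 reads is missing and not 0, no exon under 90 bases of the 8 genes is seen, and 4 libraries a genotype with 1 library that stands apart leave wide errors.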

Other observations

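The gene pairs of the set were not equally alike across libraries. On the scale of log2(CPM + 1), Pearson's r over the 8 libraries was 0.989 for Ckm with Tnni2, 0.941 for Ckm with Myh4 and 0.911 for Acta1 with Atp2a1, but 0.556 for Acta1 with Myh4. Tnnt3 had negative values with all other 7, down to -0.75 with Acta1. These are descriptions over libraries that share depth and scaling, and Tnnt3 rests on 3 exons and is listed at 0 in NSun2-/- 2.

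Coverage of Acta1 per coverage of Ckm was 1.25, 0.817, 1.42 and 3.20 in WT 1 to 4 and 2.13, 4.16, 2.49 and 2.55 in NSun2-/- 1 to 4. WT 1 to 3 lay below every NSun2-/- library and WT 4 did not, the same library that stood out in the ratio of Myh1 to Myh4 at aligned cytosines. Ryr1, the calcium release channel, was listed at 0 in WT 1, WT 3 and WT 4 and had 2.52 CPM in WT 2, against 67.1, 36.2, 79.0 and 18.4 in NSun2-/- 1 to 4 (edgeR adjusted p = 0.694). It was picked after its values were seen. Since a cytosine needs 10 reads to be listed, no fold is given.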
